A study of Mus musculus with 16 samples.

Results

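DNA-replicating light zone (LZ) B cells are the germinal center (GC) B cells of this single-cell experiment with the highest transcript levels of 8 genes of DNA synthesis. The GC is the site in a lymph node where B cells mutate their receptor and compete for T cell help. Its LZ holds cells that capture antigen and present it, and its dark zone (DZ) holds most of the dividing cells. Cells copy their DNA once per cycle: helicases are loaded at origins in G1, are switched on at the start of S phase, and are followed by primase, polymerases, clamps and ligase. Selected LZ B cells are known to begin this program before they move to the DZ.

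Members were chosen by measured values. Each of 637 cells was given a score M, the mean log2(CPM + 1) of the 8 mitotic genes Ccnb1, Ccnb2, Cdc20, Plk1, Cenpe, Cenpf, Hmmr and Tpx2, where CPM (counts scaled to the cell's own total) is the unit throughout. It was also given a score S, the same mean over Mcm3, Mcm5, Mcm6, Cdc6, Gins2, Pcna, Rrm2 and Ccne2. The fifth of cells with the highest M (127 mitotic-high cells) was set aside, and the third of the remaining cells with the highest S made up the 170 members, which were 26.7% of all cells. The other 340 are called low-S cells. The members are a range of a continuous score, not a separate type: the last member had S = 5.40 and the first cell outside 5.35, the last cell set aside had M = 5.37 and the first cell kept 5.36, and 29 members and 21 low-S cells lay within 0.5 of the S limit.

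All cells came from 1 design. B cells of 2 genotypes, B1-8hi BTKC481S and B1-8hi BTKWT, both carrying a knock-in heavy chain for high-affinity binding of the hapten NP, were transferred together into mice primed with ovalbumin (OVA) and boosted with NP-OVA. The C481S change makes Bruton's tyrosine kinase (BTK), an enzyme downstream of the B cell receptor (BCR), insensitive to the inhibitor acalabrutinib, and the hosts were treated by mouth with acalabrutinib (A12, A11, A10, A8 and A7) or vehicle (V9, V7 and V5) before LZ B cells were sorted from popliteal nodes into wells. BTKC481S mice were made by editing zygotes and backcrossed. Donor B cells came from mice of either sex, the hosts were male and kept their own immune cells. The cell names give the host and no genotype, so each host here holds cells of both genotypes together, and drug-sensitive and drug-insensitive cells cannot be told apart.

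**Figure D1:**
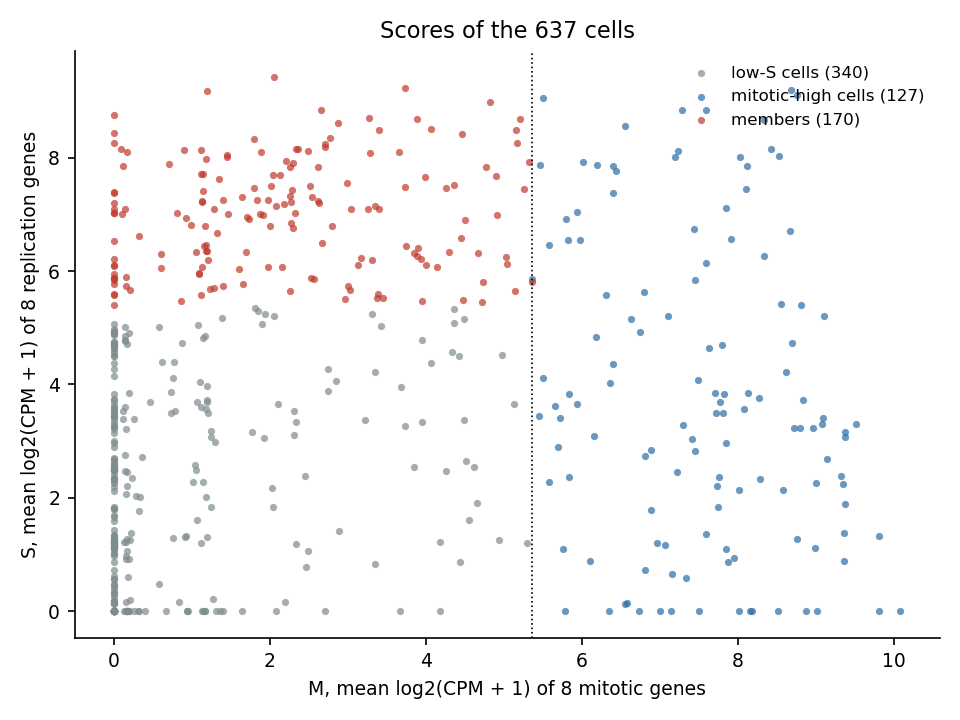
M (horizontal axis) and S (vertical axis) of the 637 cells, both as mean log2(CPM + 1) of 8 genes, colored by class. The dotted line is the M limit. The members form the upper left of a continuous cloud, and 37 of the 127 mitotic-high cells also had S above that of the last member.

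E2F factors are the regulators best known for switching on S-phase genes, and the words they bind can be read in some promoters. RefSeq windows from 250 bases before to 50 after the gene start are shown for Mcm5 (GRCm38.p6, chr8:75109259-75109558, plus strand) and Mcm6 (chr1:128359656-128359955, minus strand), helicase subunits inside the rule. The window of Dtl (chr1:191575495-191575794, minus strand), a gene outside the rule whose product marks replication factors for destruction, is shown beside them. That build is not GRCm39, to which the reads were aligned, and no coordinate was carried between them. Capitals mark matches, on either strand, to the E2F words TTTCCCGC, TTTCGCGC, TTTGCCGC and TTTGGCGC. The words of Mcm5 overlap each other, as does the first pair in Mcm6.
Mcm5: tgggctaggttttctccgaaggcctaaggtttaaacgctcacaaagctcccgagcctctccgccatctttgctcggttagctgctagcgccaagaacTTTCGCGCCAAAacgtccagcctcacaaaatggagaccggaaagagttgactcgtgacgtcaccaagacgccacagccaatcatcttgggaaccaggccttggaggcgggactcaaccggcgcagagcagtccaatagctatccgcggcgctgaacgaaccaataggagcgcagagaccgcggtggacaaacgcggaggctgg
Mcm6: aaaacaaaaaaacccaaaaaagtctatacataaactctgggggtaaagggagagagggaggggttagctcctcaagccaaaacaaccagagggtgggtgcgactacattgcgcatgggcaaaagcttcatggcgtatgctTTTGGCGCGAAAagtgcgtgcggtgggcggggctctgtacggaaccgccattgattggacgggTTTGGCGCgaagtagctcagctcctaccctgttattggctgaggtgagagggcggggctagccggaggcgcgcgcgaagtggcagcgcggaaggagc
Dtl: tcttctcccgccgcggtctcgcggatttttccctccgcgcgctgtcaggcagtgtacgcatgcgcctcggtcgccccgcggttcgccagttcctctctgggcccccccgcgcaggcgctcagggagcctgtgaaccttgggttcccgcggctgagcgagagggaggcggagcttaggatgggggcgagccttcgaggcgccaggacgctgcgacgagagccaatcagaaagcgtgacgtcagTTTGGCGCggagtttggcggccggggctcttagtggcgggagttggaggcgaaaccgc

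Of the 8 S genes, 6 had a window and 4 of these held an E2F word. A word stood in 626 of 27025 promoter windows, 2.32%, and in 372 of the 9239 windows of genes tested in the comparison of members with the other cells, 4.03%. Of the 94 genes called higher in members in that comparison, 81 had a window and 16 of these (19.8%) held a word. In that comparison, the 10 genes with the largest rise were taken among those called at 20 CPM or more and higher in every host. Of their windows, the one of Dtl held a word and those of the other 9 held none. These counts describe letters in a window and do not show binding.

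The rule genes describe how far the members stood apart. Mcm6, a subunit of the replicative helicase, lay between 951 and 1314 CPM over the 8 hosts in members (median 1125) and between 163 and 646 CPM in all other cells (median 421). Rrm2, a subunit of the ribonucleotide reductase that makes deoxynucleotides, lay between 856 and 1379 CPM (median 1059) against 134 to 393 CPM (median 213). Pcna, the sliding clamp, lay between 156 and 292 CPM (median 275) against 47.2 to 123 CPM (median 73.9). All 3 ranges were separate, as the choice of cells ensured. Single cells were less complete than the sums: 26 of the 170 members had a count for all 8 genes, 144 for at least 6, and none for fewer than 5. Cdc6, which loads the helicase, had a count in 64.7% of members and Gins2, a part of the active helicase, in 47.6%. Of the low-S cells, 89 (26.2%) had no count for any of the 8.

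Members also differed from low-S cells in library depth. They held a median of 877456 counts and 4290.5 detected genes per cell, low-S cells 715754 counts and 3600 genes, and mitotic-high cells 927740 counts and 4710 genes. With every cell thinned to 459128 counts, which left out 10 members, members had 3773.5 genes, low-S cells 3310 and mitotic-high cells 4093.5, in the same order. Within the members, S had a Spearman correlation of 0.12 with total counts and 0.22 with genes detected over the 170 cells, given as a description. Mitochondrial transcripts made up a median of 0.689% of counts in members and 0.776% in low-S cells. Counts per host ran from 26778559 in A7 to 114987280 in V9. Within hosts, the median counts of members were above those of all other cells except in A7, with 524059 against 631084. The part of cell size, RNA content and doublets in these differences was not tested.

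The share of members was compared between acalabrutinib and vehicle. Members were 28.8% of cells in host A10 (15 of 52), 28.9% in A11 (33 of 114), 22.2% in A12 (18 of 81), 20% in A7 (9 of 45) and 22.5% in A8 (20 of 89). In vehicle hosts they were 28.2% in V5 (20 of 71), 25.5% in V7 (14 of 55) and 31.5% in V9 (41 of 130). The 2 groups overlapped. Acalabrutinib hosts averaged 24.5% ± 4.13 (SD, n = 5) and vehicle hosts 28.4% ± 3.05 (SD, n = 3), a difference of -3.89 percentage points that was not larger than the spread between hosts (p = 0.25, exact permutation test, two-sided, in which 56 ways to split hosts allow a smallest p of 0.0357). The size of the difference depended on which host was left out, though it stayed negative (range in the last section). Exact 95% binomial intervals, which cover counting error only, ran from 9.58% to 34.6% in A7 and from 23.7% to 40.3% in V9. Within a host the numbered sets of cells in the cell names differed widely in some hosts but not in all. Members were 40.7%, 18.2% and 27.8% of the 3 sets of V9 and 30.4%, 13.8% and 14.3% of those of A8. They were 15.7% and 33.3% in A12, 32.7% and 25.4% in A11, and 28.9% and 27.3% in V5.

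**Figure D2:**
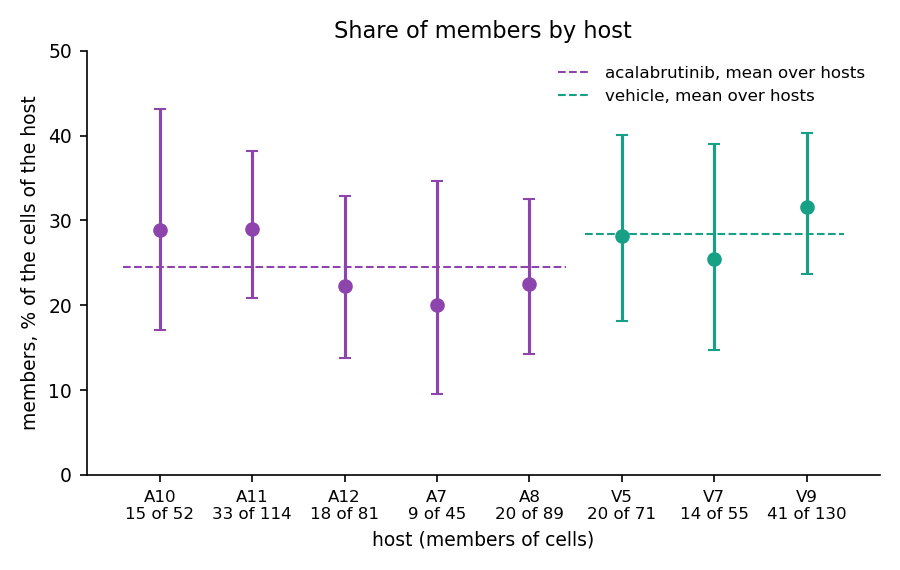
Members as a percentage of the cells of each host (vertical axis), for 5 acalabrutinib hosts and 3 vehicle hosts; points are hosts, bars are exact 95% binomial intervals and dashed lines are means over hosts. The shares run from 20% in A7 to 31.5% in V9 and the groups overlap.

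To ask which other genes differed in the members, counts were summed per host over members and over all other cells, and the sums were compared within hosts with edgeR's quasi-likelihood test and Benjamini-Hochberg adjustment (8 hosts, adjusted p below 0.05). The 16 rule genes are left out of every count of called genes. Members were selected on transcripts of the same cells, so genes that vary with the 8 S genes were brought along by the choice, and the p-values measure how steady a difference was from host to host. Of 12558 genes, 94 were higher in members (0.749% of those tested) and 18 were lower (0.143%), and 1329 had an unadjusted p below 0.05. DESeq2 called far more genes, with another balance: 407 higher and 919 lower. The median log2 fold change over all genes was -0.32, and over the 7451 genes at 20 CPM or more it was -0.14, so values below are to be read against these. All 94 genes called higher reached 20 CPM, whereas 12 of the 18 called lower were detected in under 10% of the cells of both classes.

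Of these 94 genes, 53 were in the gene lists, led in number by genes of the replication fork. Genes of origin licensing and firing were called higher in 6 of 23 cases, with a median log2 fold change of 0.87 over the list. Mcm2, another helicase subunit, lay between 581 and 966 CPM in members (median 779) and between 141 and 434 CPM in other cells (median 279). Mcm10, which helps to switch the helicase on, lay between 247 and 507 CPM (median 288) against 20.1 to 114 CPM (median 49.3). Cdc45, a part of the active helicase, lay between 273 and 558 CPM (median 384) against 58.1 to 183 CPM (median 124). In none of these 3 genes did the ranges touch. The log2 fold changes were 1.49 for Mcm2 (adjusted p = 0.00707), 2.65 for Mcm10 (adjusted p = 0.00771) and 1.74 for Cdc45 (adjusted p = 0.00491) in edgeR. Mcm4, Mcm7 and Cdc7, the kinase that fires origins, were called as well, at 1.22, 1.32 and 1.08. The origin recognition genes Orc1 to Orc6 and the licensing factor Cdt1 did not pass, with values from -0.28 for Orc1 to 1.52 for Orc6.

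Of the 29 genes tested that work at the replication fork, 16 were called higher, none was lower, and all 29 had a positive value (median 1.17). Pola1, the catalytic subunit of the polymerase that starts new strands, lay between 779 and 1174 CPM in members (median 964) and between 395 and 628 CPM in other cells (median 445.5), a log2 fold change of 1.1 (edgeR adjusted p = 0.00124). Lig1, the ligase that joins Okazaki fragments, lay between 319 and 558 CPM (median 348) against 62.5 to 180 CPM (median 144, log2 fold change 1.59, edgeR adjusted p = 0.0168). Each gene was higher in members in 8 of 8 hosts, with no overlap. Primase (Prim1 1.33, Prim2 1.44), the lagging-strand polymerase (Pold1 0.98, Pold2 1.71), the clamp loader (Rfc3 1.03, Rfc4 1.24, Rfc5 0.84), the clamp unloader Atad5 (1.84) and single-strand binding protein (Rpa1 0.89, Rpa2 1.81) were all called. Rfc1, the largest clamp loader subunit, was at 0.19 and did not pass (edgeR adjusted p = 0.626). Pclaf, a PCNA-associated factor, had no count in any cell of the series and Tk1, a thymidine kinase, had none either, so neither could be compared.

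**Figure D3:**
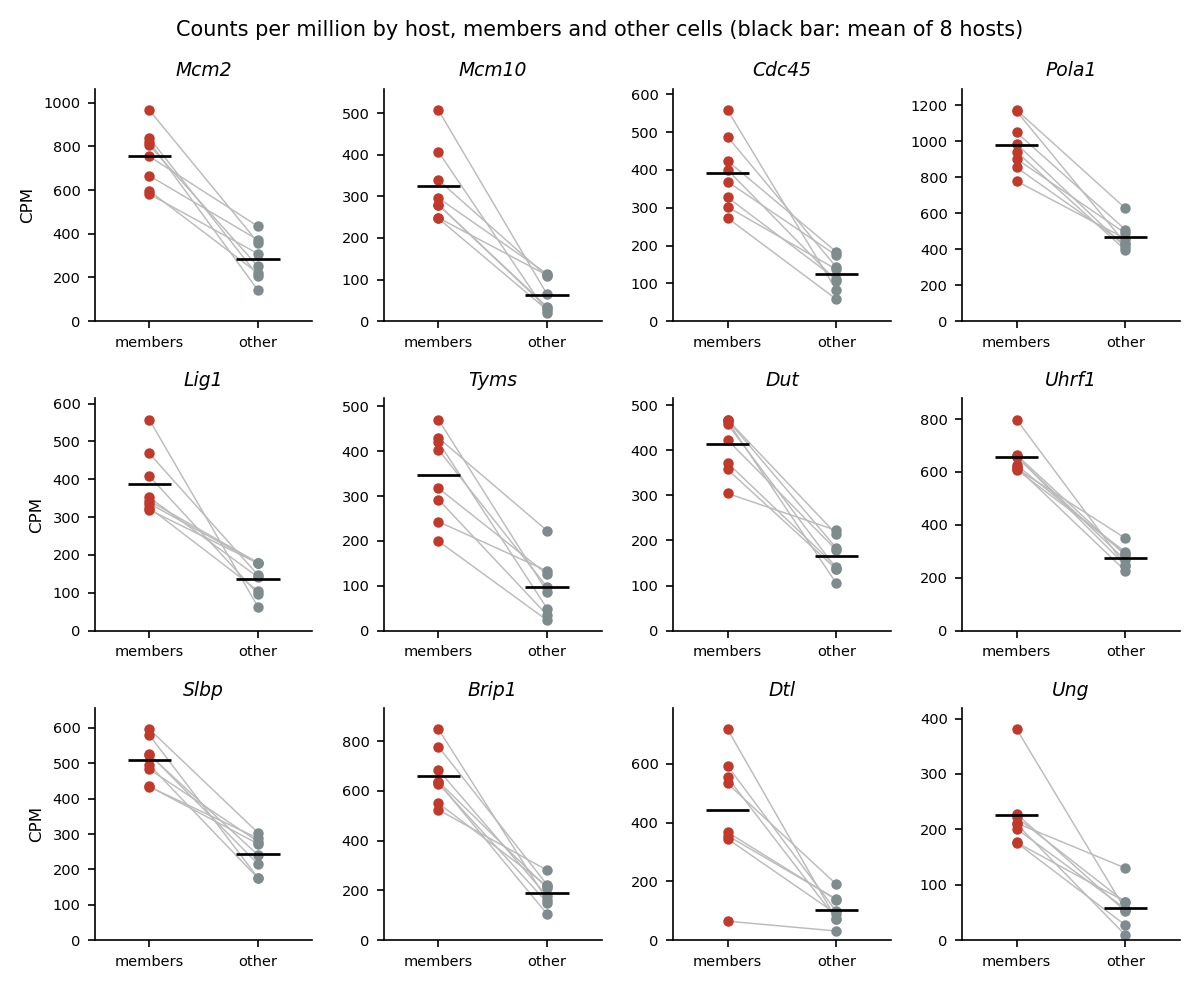
CPM of 12 genes outside the rule (vertical axes, each from 0) in the summed members and the summed other cells of each host; grey lines join the classes of a host and black bars are means over 8 hosts. In every panel each host is higher in members, and in Dtl host A7 is low in both.

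Enzymes that supply deoxynucleotides were called higher in 5 of 21 tested genes (median 0.81). Tyms, which makes thymidylate, lay between 199.6 and 470.5 CPM in members (median 361) and between 23.1 and 223 CPM in other cells (median 91.8), higher in 8 of 8 hosts although the ranges overlapped (log2 fold change 2.15, edgeR adjusted p = 0.00989). Dut, which keeps uracil out of DNA, lay between 304 and 468 CPM against 105 to 222 CPM (1.39, edgeR adjusted p = 0.00511). Rrm1, Dtymk and Mthfd2 passed at 1.03, 1.06 and 0.91. The purine synthesis genes Gart (0.21), Ppat (0.72) and Atic (0.69) did not.

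Genes that package new DNA and copy its methylation were called in 9 of 15 tested cases (median 1.21, all 15 positive). Uhrf1, which brings the maintenance methylase to new strands, lay between 609 and 798 CPM in members (median 642) and between 226 and 349 CPM in other cells (median 276, log2 fold change 1.29, edgeR adjusted p = 0.00124). Slbp, which binds the end of histone mRNAs, lay between 434 and 597 CPM against 175 to 303 CPM (1.12, edgeR adjusted p = 0.00491). Both had separate ranges. Asf1b, a histone chaperone, and Hells, a remodeler, were called at 1.3 and 1.57, and Dnmt1, the methylase itself, at 0.94.

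Regulators of the G1/S transition were called in 4 of 16 cases (median 0.98), namely E2f8 (2.12), Tfdp1 (1.04), Cdk2 (1.27) and Fbxo5 (1.48). E2f8 is a repressor among the E2F factors, Tfdp1 a partner of the activating ones, and Fbxo5 restrains the ubiquitin ligase that would end S phase. Ccne1, the partner of Cdk2, lay between 78.4 and 214 CPM in members and between 9.55 and 111 CPM in other cells and did not pass (2.40, edgeR adjusted p = 0.0600). Of 17 tested genes of G1 and quiescence, the G1 kinase Cdk4 was called higher (1.01, edgeR adjusted p = 0.00771) and none lower. Btg2, an antiproliferative gene, had medians of 208 CPM in members and 323 CPM in other cells (-0.59, edgeR adjusted p = 0.165).

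Replication checkpoint and repair genes had the largest median of these lists, 1.82, and 8 of 20 were called higher. Brip1, a helicase that works with Brca1, lay between 524 and 849 CPM in members (median 636) and between 105 and 281 CPM in other cells (median 193, log2 fold change 1.87, edgeR adjusted p = 0.00208). Dtl lay between 64.6 and 718 CPM (median 451) against 31.2 to 190.5 CPM (median 93.7, log2 fold change 2.05, edgeR adjusted p = 0.00771). The low value of Dtl in members came from host A7, with 9 members. Fanci, of the crosslink repair pathway, and Blm, a helicase, were called at 1.94 and 1.89. Chek1, the checkpoint kinase, and Rad54l, which works in recombination repair, were called at 1.94 and 2.09. Atr, the kinase upstream of Chek1, was at -1.02 and did not pass (edgeR adjusted p = 0.826).

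Ung removes uracil from DNA and is known to act in antibody gene diversification. It was the 1 gene called of 12 in its list, of antibody gene mutation and repair, in which 8 values were positive (median 0.52). Ung lay between 176 and 381 CPM in members (median 210.5) and between 9.19 and 130 CPM in other cells (median 55.9), a log2 fold change of 2.21 (edgeR adjusted p = 0.0251). The ranges did not overlap. Ung lay between 10.6 and 120 CPM in low-S cells and between 0 and 143 CPM in mitotic-high cells. It was not called against either of these classes alone. A count was found in 52.9% of members and 16.3% of other cells, and in 53.1% and 16.9% after thinning.

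The 10 genes with the largest rise among those called, higher in every host and at 20 CPM or more, were Mcm10, Pask, Ung, Tyms, E2f8, Rad54l, Dtl, Fanci, Chek1 and Blm. Pask, a nutrient-sensing kinase and the only one of the 10 outside the lists of DNA metabolism and G1/S control, lay between 45.8 and 194 CPM in members and between 10.1 and 40.9 CPM in other cells (2.38, edgeR adjusted p = 0.0331), and it did not pass with thinned counts (edgeR adjusted p = 0.312). Only 4 genes met the same terms downward. Tbc1d14, a regulator of membrane traffic, lay between 77.5 and 200 CPM in members and between 223 and 443 CPM in other cells (-1.17, edgeR adjusted p = 0.0238). By class, Tbc1d14 lay between 287 and 495 CPM in low-S cells and between 12.9 and 296 CPM in mitotic-high cells, where its range overlapped that of members. Against neither class alone was it called. Ralgps2 (-0.71), Top1 (-0.48) and Stat3 (-0.47) were the other three. Top1, a topoisomerase, lay between 297 and 383 CPM against 415 to 573 CPM (edgeR adjusted p = 0.0379), but its value turned to 0.15 with limma on the mean of log2(CPM + 1) over cells. Low-S cells alone had 329 to 497 CPM of Top1, which overlapped members, and it was not called against them. Mitotic-high cells had 398 to 1066 CPM, and against them it was called lower in members. Pask was lost without any host but A12 (adjusted p up to 0.0960) and Tbc1d14 without A10, A11, A12, A8, V5 or V7 (up to 0.0794). The calls of Ralgps2, Top1 and Stat3 were lost without any single host (up to 0.143).

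Of the 53 genes of the lists called higher, 27 kept an adjusted p below 0.05 whichever host was left out. They include Mcm2, Mcm7, Mcm10, Cdc45, Pola1, Prim2, Rpa1, Atad5, Tyms, Dut, Uhrf1, Slbp, Tfdp1, Cdk4, Brip1, Fanci, Blm and Dtl. Chek1 was lost without A10, A11, A12, V5, V7 or V9 (adjusted p up to 0.0926), and Ung without A10, A12, A7, V5, V7 or V9 (up to 0.0826). Lig1 was lost without A8, V5 or V9 (up to 0.0605), E2f8 without A8 or V7 (up to 0.0606), and Rad54l without any host but A10 (up to 0.121). Mcm4, Prim1, Pold1, Pold2, Rfc3, Rfc4, Rfc5, Rrm1, Dtymk, Mthfd2 and Cdk2 were all lost without V7, and Rpa2 without any host but V7 (up to 0.133). When members and other cells were limited to 3525.4 to 5516.3 detected genes, which 136 of the 170 members had, 28 of the 53 remained called. With thinned counts 38 did.

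Other lists gave few calls. Of the lists of light zone genes, dark zone genes, plasma cell genes, memory precursor genes, BCR early response, T cell help and NF-kB, and MYC targets and ribosome biogenesis, none had a gene called in either direction against the other cells. Their values were not all small: the medians were -1.40 over 4 plasma cell genes, -1.33 over 8 memory precursor genes, -0.58 over 12 BCR early response genes (1 positive), -0.46 over 20 genes of T cell help (1 positive), -0.27 over 8 light zone genes (0 positive), -0.14 over 6 dark zone genes and 0.13 over 23 MYC targets, beside -0.32 over all genes. Myc, the factor that marks LZ cells given T cell help, lay between 3.58 and 218 CPM in members (median 140.5) and between 51.6 and 235 CPM in other cells (median 147, log2 fold change -0.94, edgeR adjusted p = 0.576). The sign of its log2 fold change turned with limma on the mean of log2(CPM + 1) over cells. Myc had a count in 31.2% of members, 24.4% of low-S cells and 32.3% of mitotic-high cells. Cd83, a surface marker of LZ cells, lay between 1128 and 1738 CPM in members and between 1180 and 1809 CPM in other cells (-0.10, edgeR adjusted p = 0.743). For both genes the ranges of members and of the pooled other cells overlapped. In glycolysis, Tpi1 was called at 0.87 (edgeR adjusted p = 0.00771) and Ldha at 0.47 (edgeR adjusted p = 0.0368, lost without any single host, up to 0.109), 2 of 13 genes. The pro-apoptotic and anti-apoptotic lists held no called gene of the 14 and 8 tested.

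The other cells are a mixture of cells with few S-phase transcripts and of mitotic cells, so members were also compared with each class separately. These comparisons share the members, so their values are given side by side and not as separate evidence.

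Against the low-S cells of the same host, 166 of 12730 genes were higher in members (1.3% of those tested) and 53 lower (0.416%), with a median over all genes of -0.21 (-0.08 at 20 CPM or more). DESeq2 called 482 higher and 682 lower, so the balance between directions turned with the tool. Called higher were 5 of 23 genes of origin licensing and firing, 11 of 29 of the fork and 4 of 21 of nucleotide synthesis. So were 9 of 15 of chromatin assembly, 8 of 16 of G1/S control and 5 of 20 of checkpoint and repair. The medians of these lists ran from 0.96 to 2.29, each above that against the other cells. Of 27 G2/M genes outside the rule, 16 were called higher, with a median of 2.20. Mki67, the proliferation marker, lay between 406 and 710 CPM in members (median 603) and between 77.9 and 281 CPM in low-S cells (median 157, log2 fold change 1.89, edgeR adjusted p = 6.01e-05). Top2a, which untangles copied DNA, lay between 811 and 1351 CPM (median 1133) against 54.6 to 391 CPM (median 261, log2 fold change 2.20, edgeR adjusted p = 3.24e-05). Both were higher in 8 of 8 hosts with no overlap. Per cell, the median of mean log2(CPM + 1) over the 28 G2/M genes was 3.25 in members, 0.39 in low-S cells and 5.91 in mitotic-high cells. M itself had a median of 2.07 in members, and 21 members (12.4%) had M = 0.

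Polh, a translesion polymerase that acts in antibody gene mutation and is also counted here among dark zone genes, was higher in members than in low-S cells in 7 of 8 hosts (medians 157 and 41.4 CPM, log2 fold change 2.0, edgeR adjusted p = 0.00480). It was lower in members than in mitotic-high cells in 6 of 8 hosts (median 229 CPM there, log2 fold change -0.69, edgeR adjusted p = 0.672). The 4 listed genes called lower were Foxp1, Pax5, H2-Aa and Cd74. Foxp1 is a transcription factor placed in the dark zone list. Foxp1 lay between 265 and 773 CPM in members (median 456) and between 842 and 1387 CPM in low-S cells (median 911.5), a log2 fold change of -1.03 (edgeR adjusted p = 0.0104). No host overlapped, and the call held whichever host was left out (adjusted p up to 0.0453). Pax5, the B cell identity factor, had medians of 779.5 and 1138 CPM and was lower in 8 of 8 hosts (-0.49, edgeR adjusted p = 0.0317), and the call was lost without A12, A7, A8, V5, V7 or V9 (up to 0.115).

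The 8 light zone genes summed to 2476 to 3460 CPM in members, 3582 to 4203 CPM in low-S cells and 1292 to 3734 CPM in mitotic-high cells, so members and low-S cells did not overlap. None of the 8 was called against low-S cells, and all 8 values were negative (median -0.48 beside -0.21 over all genes). Against mitotic-high cells 7 of 8 were positive and 1, Cd83, was called (median 0.45 beside 0.05). Cd83 had medians of 1232 CPM in members and 1799 CPM in low-S cells, lower in 8 of 8 hosts (-0.46, edgeR adjusted p = 0.165). The 6 dark zone genes summed to 1253 to 2148 CPM in members, 1804 to 2834 CPM in low-S cells and 1817 to 2544 CPM in mitotic-high cells. In every host this sum was lower in members than in either class. The 16 GC B cell genes summed to 11175 to 14153, 13275 to 17638 and 9922 to 13609 CPM in the same order.

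H2-Aa and Cd74 belong to MHC class II, through which B cells show antigen peptides to helper T cells. The other genes of that group were looked up after these values were seen, so their count is a description and supports nothing. Of the 7 others with enough counts, 5 were called lower in members than in low-S cells (H2-Ab1, H2-Eb1, H2-DMa, H2-DMb2 and H2-Ob), while H2-DMb1 (-0.40) and Ciita (-0.29) did not pass. Their median was -0.37 beside -0.21 over all genes. H2-Aa lay between 840 and 1374 CPM in members (median 1108) and between 1155 and 1644 CPM in low-S cells (median 1303, log2 fold change -0.30, edgeR adjusted p = 0.00890), lower in 8 of 8 hosts. Cd74, the invariant chain, lay between 1451 and 2143 CPM (median 1706) against 1833 to 2785 CPM (median 2148, log2 fold change -0.34, edgeR adjusted p = 0.0179), lower in 7 of 8 hosts. The call of Cd74 was lost without A10 or V9. All ranges overlapped. Of all 7 called, H2-Aa and Cd74 included, 7 stayed called with DESeq2, 3 with DESeq2's size factors in edgeR and 5 with thinned counts. Only H2-Aa stayed called without each host in turn (for the 7, adjusted p up to 0.225). Against the mitotic-high cells no gene of this group was called, and 7 of 9 values were positive (median 0.11).

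**Figure D4:**
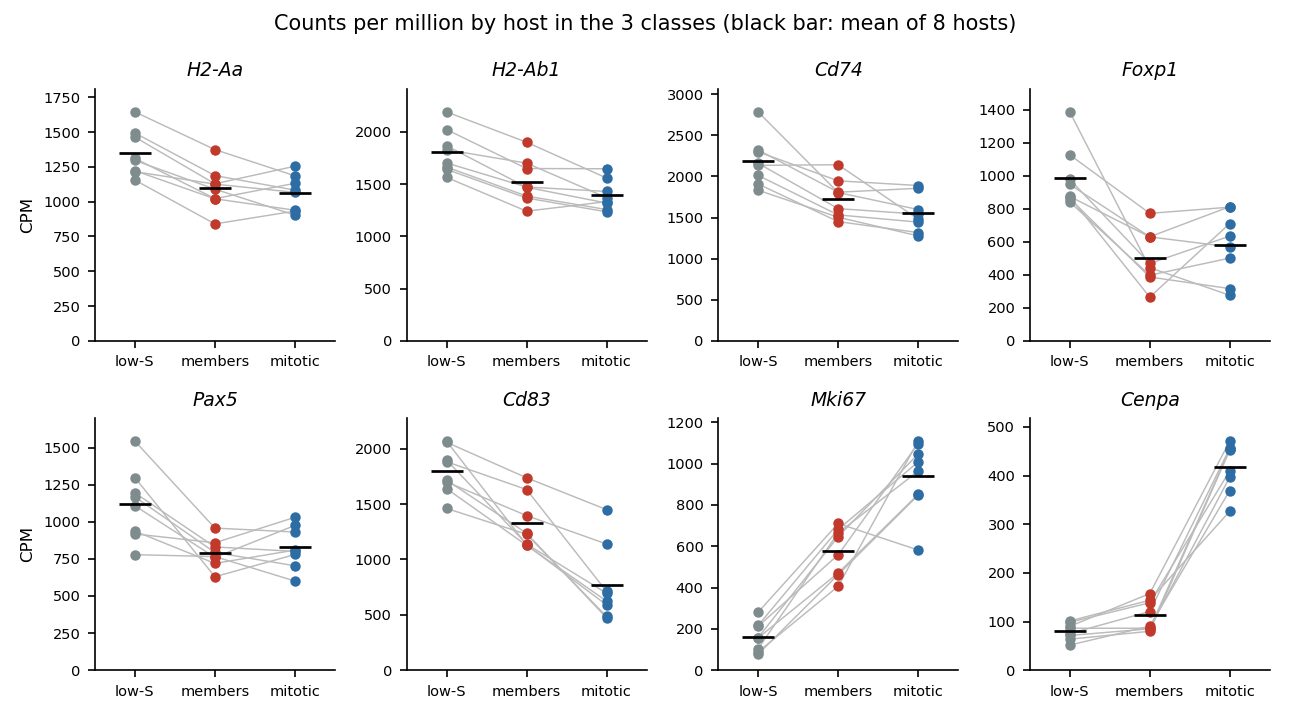
CPM of 8 genes (vertical axes, each from 0) in low-S cells, members and mitotic-high cells of each host; grey lines join the classes of a host and black bars are means over 8 hosts. Foxp1 and the MHC class II genes are highest in low-S cells, Cd83 is lowest in mitotic-high cells, and Mki67 and Cenpa are highest there.

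Against the mitotic-high cells, 25 of 12730 genes were higher in members (0.196%) and 22 lower (0.173%), with a median over all genes of 0.05. DESeq2 called 444 and 358. Since M chose the mitotic-high cells, genes of mitosis were brought along: of 27 G2/M genes outside the rule, 6 were lower (Birc5, Kif20a, Cdca8, Cdca3, Cenpa and Ube2c) and none higher. With thinned counts only Birc5 and Cenpa of these 6 stayed called. Cenpa, the centromere histone, lay between 80.0 and 157 CPM in members and between 327 and 471 CPM in mitotic-high cells (-1.92, edgeR adjusted p = 9.58e-06). Few replication genes were called here: 1 of 23 of origin licensing and firing, 4 of 29 of the fork, 1 of 21 of nucleotide synthesis, 2 of 15 of chromatin assembly, 0 of 16 of G1/S control and 1 of 20 of checkpoint and repair, all higher in members. Those called were the purine synthesis gene Paics (1.27) and Mcm2 (1.45), Pola1 (0.98), Rpa1 (0.95), Wdhd1 (1.28), Atad5 (1.86), Hells (1.72), Slbp (1.04) and Brip1 (1.23). The calls of Wdhd1, Atad5 and Brip1 were each lost without A12, V7 or V9 and others (adjusted p up to 0.171), Paics without A10, A7 or V9 (up to 0.0842), Kif20a without A10, A12 or A8 and Cdca3 without A11 or A8 (up to 0.0812). Brip1 also did not pass with thinned counts (edgeR adjusted p = 0.124). Rrm1 was nearly level, at medians of 538 CPM in members and 514.5 CPM in mitotic-high cells (0.09, edgeR adjusted p = 0.996). Cd83 was called higher in members (0.86, edgeR adjusted p = 0.00958), with 1128 to 1738 CPM against 473 to 1450 CPM, and was higher in 8 of 8 hosts. That call was lost without A12 or V5 (adjusted p up to 0.0567) and with thinned counts (0.0903). Ebf1, a B lineage factor, was also called (0.47, edgeR adjusted p = 0.0280), and was lost without A10, A11, A12, V5, V7 or V9 (up to 0.164).

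Some genes were called higher in members in each of these comparisons, which share cells. Hells had log2 fold changes of 1.57 against the other cells, 1.49 against low-S cells and 1.72 against mitotic-high cells, and Mcm2 had 1.49, 1.51 and 1.45. Mcmbp, which binds the helicase subunits and was named after its values were seen, had 0.50, 0.45 and 0.52, and its call against the other cells was lost without any single host (adjusted p up to 0.134). Blnk (-0.34) and Csk (-0.59), which relay and restrain BCR signals and were also named after their values were seen, were lower in members than in low-S cells (edgeR adjusted p = 0.0247 and 0.0490, and up to 0.165 and 0.180 without a host).

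**Figure D5:**
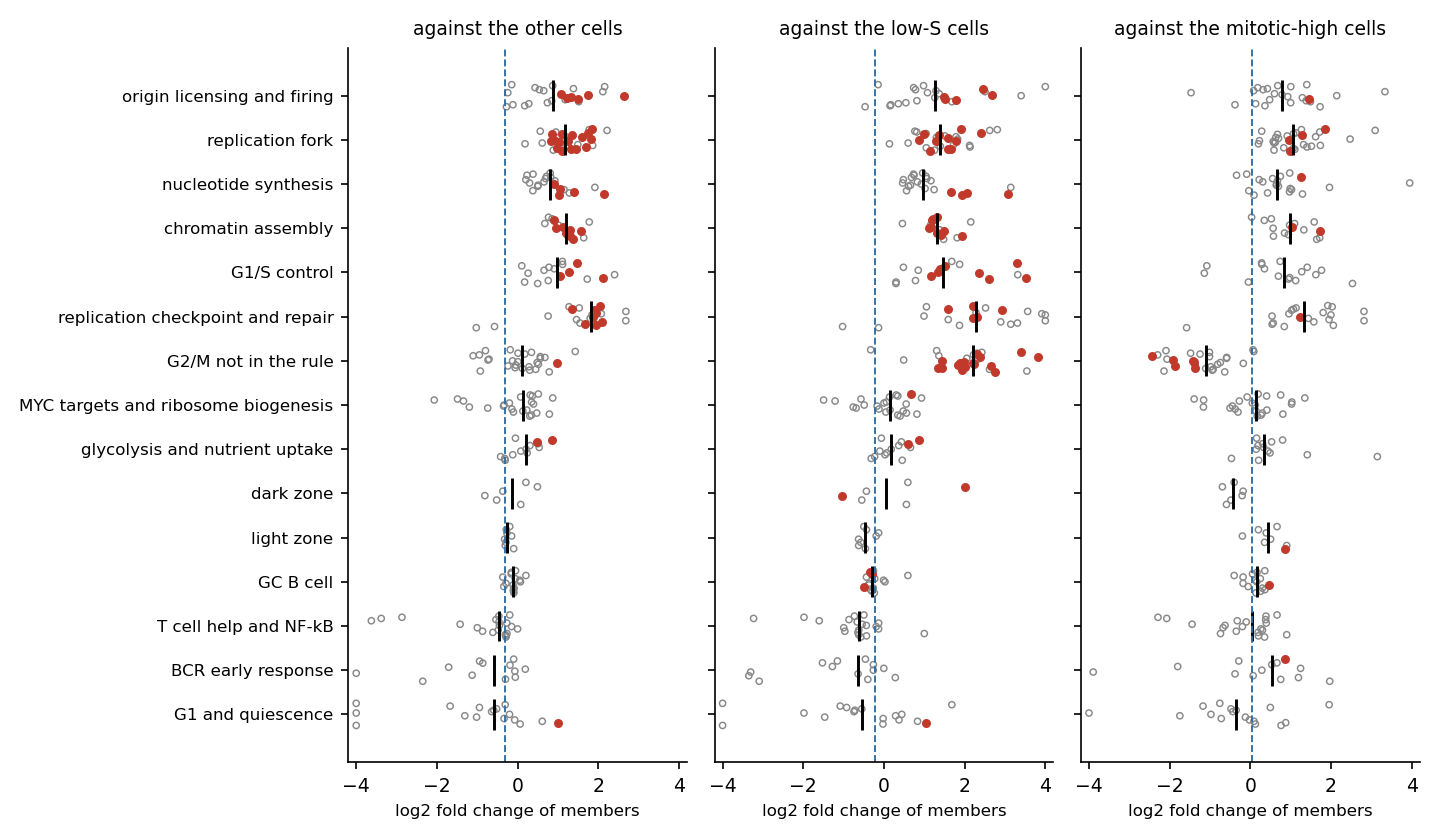
Log2 fold changes of listed genes (horizontal axis) in the 3 comparisons; each point is a gene, filled red where edgeR's adjusted p was below 0.05, with black bars for list medians, a dashed line for the median of all genes and values beyond ±4 drawn at the edge. In all 3 panels the medians of the replication lists lie to the right of the dashed line, and the median of the G2/M genes lies to the right of it against low-S cells and to the left against mitotic-high cells.

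Among the members, those with M above their median of 2.07 were compared with those below it in the 7 hosts with at least 5 of each. No gene was called by edgeR (0 of 8889, 0%), with 192 at an unadjusted p below 0.05 and 306 called by DESeq2. The replication fork list had a median of 0.06 and the origin list -0.03, while the G2/M list, which follows the split by its choice, had 1.11. The light zone list had a median of -0.66 and 1 of 8 positive values, and the dark zone list 0.36 with 6 of 6 positive, beside 0.01 over all genes. Cd83 was at -0.53 and Cd86 at -0.92. No gene of either zone list passed the test.

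Acalabrutinib was compared with vehicle within the members, with 5 and 3 hosts. No gene was called (0 of 12412, 0%), with 340 at an unadjusted p below 0.05 and 43 called by DESeq2. Cells of both genotypes were pooled in each host. Mcm2 had 744 ± 161 CPM (SD, n = 5) under acalabrutinib and 770 ± 91.8 CPM (SD, n = 3) under vehicle, a difference smaller than the spread between hosts. Members of both arms were chosen for high S, which bears on the level of every replication gene that varies with it. Of the 29 fork genes 4 had a positive value (median -0.16, beside 0.05 over all genes). Btk had 337 ± 116 CPM under acalabrutinib and 376 ± 93.2 CPM under vehicle (-0.17). Foxp1 had 393 ± 78.6 CPM and 678 ± 82.2 CPM (-0.80, edgeR adjusted p = 0.9997). Of 12 BCR early response genes 4 had a positive value (median -0.16). Among them Egr1 had 72.9 ± 43.2 and 147 ± 80.2 CPM and Junb 205 ± 81.4 and 200 ± 56.7 CPM. None of these passed. The treatment difference in members less that in the other cells also gave no call (0 of 12558, 0%), with 328 at an unadjusted p below 0.05 and 195 called by DESeq2.

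Genes that the study followed in LZ selection were not called against the other cells. Junb, an early response gene, had medians of 194 CPM in members and 209 CPM in other cells, Cd40 147 and 197 CPM, and Icam1 114 and 159 CPM. Xbp1 had 374 and 357 CPM, and Cxcr4, the receptor that draws cells to the DZ, 40.1 and 47.9 CPM. All of these ranges overlapped. Batf, Irf4, Prdm1, Ccnd2 and Tfap4 had medians below 10 CPM in members. Batf had 0 to 50.9 CPM in members (median 7.49) and 22.1 to 112.5 CPM in other cells (median 45.2), lower in 7 of 8 hosts, and did not pass (-3.38, edgeR adjusted p = 0.509). Medians in other cells were 49.9 CPM for Irf4, 14.7 for Prdm1, 13.3 for Ccnd2 and 5.01 for Tfap4, and none of these passed.

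Markers of B cells and of other cells the sort could hold were checked. Cd79a had a count in 100% of members and in 99.4% of other cells, and the 16 GC B cell genes summed to 11175 to 14153 CPM in members and 11891 to 16639 CPM in other cells, led by Ebf1. Ms4a1 had no count in any cell. The LZ genes Cd83 and Cd86 had a count in 90% and 64.7% of members. The 11 T cell genes summed to 125 to 403 CPM in members, of which Lck, which B cells also express, averaged 259. Cd3e and Trbc1 had no count in members, while Cd4 reached 33.1 CPM and Cd3d 10.4 CPM in A12, and Cd8a 13.1 CPM and Trac 9.81 CPM in A11. The 10 macrophage genes summed to 0.210 to 99.7 CPM, led by Cd68 with a mean of 15.9 CPM, and 6 of them, Lyz2, Cd14 and Itgam included, were at 0 in members. The highest sum was in A8, where Adgre1 was at 92.0 CPM in members and 1.07 CPM in low-S cells. Stromal and follicular dendritic cell genes summed to 0 to 61.4 CPM, led by Mfge8. In other cells these 3 lists summed to 185 to 437, 12.6 to 44.2 and 0 to 37.7 CPM, and their part in the results was not tested. Plasma cell genes summed to 1035 to 1651 CPM in members and 845 to 1552 CPM in other cells, led by Jchain.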

How the data were processed

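RNA of single sorted LZ B cells was read by SMART-seq2, which copies whole transcripts and has no molecular identifiers, so sampling intervals cover counting error only. Per the labels and methods the authors aligned reads with STARsolo 2.7.10a to GRCm39, counted reads over exons and introns, dropped reads at identical positions, and deposited raw counts of 56691 genes in 637 cells after filters on mitochondrial share and genes detected. Exons and introns are not told apart, and the strand used in counting is not given in the sources used here.

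Hosts were read from the cell names, which give no genotype. Nothing in the labels ties hosts to the separate runs of the experiment. The members and gene lists were chosen with earlier results of these data known. Counts were summed per host and class, for hosts with at least 5 cells of each class, and fitted in edgeR 4.0.16 (R 4.3.3) with TMM normalization, a low-count filter, host as a block for comparisons of classes, and the quasi-likelihood test. CPM in the text is that of the summed counts. A CPM of summed cells does not tell fewer cells with a transcript from less transcript per cell. Genes were named if in the lists, and as the 10 largest changes per direction among genes called at 20 CPM or more with one sign in every host. Doublets were not called. DESeq2 1.42.0, limma 3.58.1, thinning to 459128 counts per cell, other limits of S and leaving out each host were alternatives. The test was also tried on simulated counts, and the outcome is not reported here. Promoter windows came from RefSeq.
Results for some genes of DNA repair and mutation are not reported here.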

Additional observations from a re-analysis of the deposited data

Results flagged for a closer look

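In 3 of 29 genes looked at, 1 acalabrutinib host lay far from the other 4 in its members. The outlier limit used sets apart about 1 in 20 groups by chance where values are normally distributed. Values mostly at or near 0 are not, and the rate for them was not tested. Ccnd2, a G1 cyclin, was at 37.4 CPM in A11 and at 0, 0, 0 and 7.46 CPM in the others. Prdm1, the plasma cell regulator, was at 173 CPM in A10 and at 0, 0, 0 and 16.7 CPM in the others. Irf4, which acts with Prdm1, was at 45.8 CPM in A10 and at 0, 0.411, 1.39 and 11.1 CPM in the others. The vehicle host V9 was at 47.8 CPM for Ccnd2 and 44.6 CPM for Irf4. These genes had a count in 4.71%, 4.12% and 8.24% of members.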

How the results depend on the processing

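All 53 listed genes called higher than in the other cells were also called by DESeq2, 38 with thinned counts and 27 without each host in turn. Against the other cells, 94 genes were higher and 18 lower in edgeR. DESeq2 gave 407 and 919, no low-count filter 43 and 4, thinned counts 62 and 5, members chosen again on thinned counts 58 and 7, and matched genes detected 38 and 2. The mean of log values over cells in limma gave 553 and 14, and leaving out each host gave 43 to 73 higher and 2 to 9 lower. Against low-S cells (166 and 53) DESeq2 gave 482 and 682, no filter 104 and 25, thinned counts 107 and 35, and leaving out hosts 114 to 153 and 20 to 35. Against mitotic-high cells (25 and 22) DESeq2 gave 444 and 358, no filter 10 and 11, and leaving out hosts 10 to 25 and 12 to 19. Where edgeR called 0, DESeq2 called 43 for treatment, 195 for its difference between classes and 306 for members by M. The share difference of -3.89 lay between -5.36 and -2.31 without a host. Signs against the other cells were followed in a set of named genes and not in every gene called. Within that set, signs turned in genes that were not called, except Top1: with limma Top1 was 0.15, Myc 0.13, Tfap4 0.10, Junb 0.30, Cd86 0.047 and Btk 0.33. Without 1 host Junb ran from -0.15 to 0.026 (A8), and was 0.012 without V7. Btk in members against the other cells, which is not its treatment difference, ran from -0.17 to 0.038 (V7), and was 0.0063 without A11. Xbp1 was -0.14 with 127 members and ran from -0.022 (without A8) to 0.26, Cxcr4 was -0.025 with 127 members and -0.054 thinned, and Cd86 0.0077 at matched genes detected. The cause was not tested. Classes were compared within hosts, with host as a block. For the genotypes that share a host, no paired analysis was possible because the cell names carry no genotype. Few counts limit genes detected in few members, above all in A7 with 9 members.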
